A study of Mus musculus with 6 samples.

Results

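*Psca* and 9 other genes of the Ly6/uPAR family were followed in mouse submandibular salivary gland organoids (mSGOs) between day 5 and day 7 of culture. The 10 genes, *Psca*, *Ly6d*, *Ly6a*, *Ly6e*, *Ly6c1*, *Ly6k*, *Ly6g6c*, *Lypd2*, *Lypd3* and *Slurp1*, were taken by name and Ensembl gene ID out of 47643 gene IDs. They were chosen by family, with the counts and fold changes of the same day 7 against day 5 contrast in view, so that contrast is described for them and is not tested. All 10 were counted in at least 2 of the 6 libraries and entered the fit of all genes.

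The mSGOs were grown in Matrigel from gland cells of C57BL/6 mice aged 8 to 12 weeks. Every culture was untreated and non-irradiated, and was kept in WRY medium, which carries EGF, FGF2, insulin, dexamethasone, the kinase inhibitor Y27632 and conditioned media with R-spondin1 and Wnt3a. Organoids of 3 mice were collected at day 5 and organoids of the same 3 mice at day 7, which gave 3 libraries per day. Polyadenylated RNA was read from the 3′ end of each transcript with the Lexogen QuantSeq kit, so levels are given as counts scaled to a library of 1000000 (CPM) and are not divided by gene length, since each transcript is read at 1 place.

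Proteins of the Ly6/uPAR family share a small domain of loops held together by disulfide bonds. Most are fixed to the outer face of the cell membrane by a glycosylphosphatidylinositol (GPI) anchor, and a few, such as SLURP1, are secreted. Many of the genes lie in a row in the Ly6 locus, and several mark stem cells, leukocytes or layers of stratified epithelium.

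The libraries held 1918198 to 2837397 counts in genes, and 3 counts, the upper limit that a count of 0 allows, stood for 1.04 to 1.51 CPM. Entries that name no gene held 13.7% to 14.4% of the counts of day 5 libraries and 9.12% to 9.74% of day 7 libraries. These entries were summed, and the kinds of read in them were not separated. The part of this difference between the days in the results was not tested. Handling or sequencing that differed between the days cannot be told apart from the day. In the edgeR fit, 1901 of 15792 genes passed an adjusted p under 0.05 with an absolute log2 fold change over 0.6, 1140 of them higher and 761 lower at day 7. Scaled by library totals only, the split was 950 higher and 1008 lower. The epithelial identity of the organoids was checked on 12 marker genes, all detected, which summed to between 14719 and 18495 CPM at day 5 and between 12450 and 16611 CPM at day 7. *Krt14*, a keratin of basal cells, stood at 7719 ± 1536 and 6543 ± 2124 CPM, and its basal partner *Krt5* at 5965 ± 470 and 4238 ± 1112 CPM (SD, n = 3 per day). Of the 12, 2 passed the threshold higher and 1 lower at day 7, beside 7.22% higher and 4.82% lower over all genes. Neither *Krt14* nor *Krt5* was among them. Of 14 acinar and granular duct markers, 6 were at 0 in every library, and the list summed to 8.03 to 18.6 CPM at day 5 and 11.8 to 26.9 CPM at day 7. The water channel gene *Aqp5* and the amylase gene *Amy1* carried most of that sum, with means of 7.53 and 2.02 CPM at day 5 and of 14.9 and 0.790 CPM at day 7.

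Of the 10 genes, 6 were past the threshold, all higher at day 7. The background beside this count is 12.0% of all genes tested in either direction, 7.22% higher and 4.82% lower. DESeq2 also placed 6 of the 10 past the threshold, beside a background of 13.4% in either direction, 7.94% higher and 5.42% lower. The same 6, *Psca*, *Ly6g6c*, *Lypd3*, *Ly6c1*, *Ly6e* and *Ly6a*, had day 7 libraries that all lay above the day 5 libraries, which held for 15.4% of all genes, against 15.5% with all day 7 libraries below and 30.9% in either direction. *Ly6d* and *Ly6k* overlapped between the days, and *Lypd2* and *Slurp1* stayed at or under 1 count in each library. In bulk RNA, fewer cells of a type and less RNA per cell cannot be told apart, and this applies to every difference given here.

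**Figure D1:**
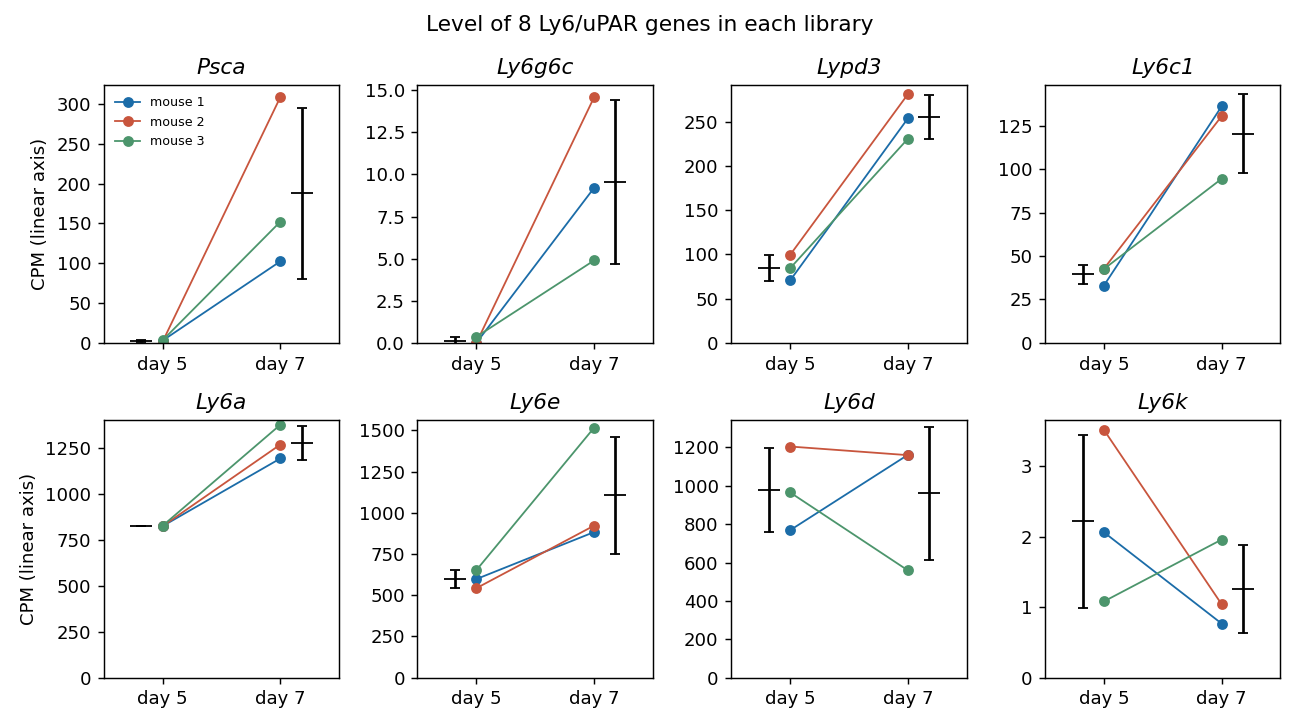
Level in CPM (vertical axis, linear, from 0, its own scale for each gene) of 8 of the 10 genes at day 5 and day 7, with 1 point per library, a line joining the libraries of 1 mouse, and the mean with bars of 1 SD beside them. *Psca* went from 1.51 to 3.24 CPM at day 5 to 102 to 309 CPM at day 7, while the lines of *Ly6d* crossed between the days.

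*Psca* encodes prostate stem cell antigen, a GPI-anchored surface protein first described in prostate and also found in other epithelia. It lies on the plus strand of chromosome 15, at chr15:74586682-74588918 of GRCm39, and is named by the ID ENSMUSG00000022598. Its promoter window is shown with those of *Ly6g6c*, *Lypd3* and *Ly6d*, which are 2 further genes that were higher at day 7 and the most abundant one that overlapped between the days. Each window runs from 250 bases before the annotated transcript start to 50 bases with and after it, 5′ to 3′ on the strand of the gene, in GRCm39 with GENCODE vM39 starts, at chr15:74586432-74586731 (plus strand) for *Psca*, chr17:35286051-35286350 (plus) for *Ly6g6c*, chr7:24335720-24336019 (plus) for *Lypd3* and chr15:74635548-74635847 (minus) for *Ly6d*. Capitals mark matches on either strand to the 7 motifs AP-1, GAS, ISRE, GATA, TEAD, KLF/SP and TATA, whose letters are given with their shares further on.
Psca: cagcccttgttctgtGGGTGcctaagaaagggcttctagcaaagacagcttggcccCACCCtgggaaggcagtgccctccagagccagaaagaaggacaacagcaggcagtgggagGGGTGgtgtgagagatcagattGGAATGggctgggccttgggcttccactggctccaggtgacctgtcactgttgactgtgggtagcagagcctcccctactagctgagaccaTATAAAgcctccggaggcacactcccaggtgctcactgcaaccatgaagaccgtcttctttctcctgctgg
Ly6g6c: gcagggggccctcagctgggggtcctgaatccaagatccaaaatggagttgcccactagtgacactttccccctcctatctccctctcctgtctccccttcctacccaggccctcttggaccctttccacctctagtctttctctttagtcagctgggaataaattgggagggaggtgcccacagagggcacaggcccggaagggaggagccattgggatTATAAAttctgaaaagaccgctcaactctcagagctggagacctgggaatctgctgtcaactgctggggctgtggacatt
Lypd3: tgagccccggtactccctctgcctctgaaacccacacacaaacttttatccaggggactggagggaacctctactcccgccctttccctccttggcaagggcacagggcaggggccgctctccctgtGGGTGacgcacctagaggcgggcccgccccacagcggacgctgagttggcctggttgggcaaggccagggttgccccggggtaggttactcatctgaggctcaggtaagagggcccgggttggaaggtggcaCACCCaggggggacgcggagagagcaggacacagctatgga
Ly6d: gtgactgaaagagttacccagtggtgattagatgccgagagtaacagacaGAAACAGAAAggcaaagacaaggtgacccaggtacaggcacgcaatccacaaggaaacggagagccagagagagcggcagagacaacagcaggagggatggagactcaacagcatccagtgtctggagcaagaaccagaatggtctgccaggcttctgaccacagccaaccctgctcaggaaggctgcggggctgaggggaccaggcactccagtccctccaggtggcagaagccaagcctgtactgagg
The windows of *Psca* and *Ly6g6c* each hold TATAAA shortly before the start, at -21 and -30 counted from the start at 0, and those of *Lypd3* and *Ly6d* hold none.

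*Psca* had 7, 3 and 9 counts at day 5 in mice 1, 2 and 3, and 267, 889 and 311 counts at day 7. In CPM these were 2.89, 1.51 and 3.24 at day 5 and 102, 309 and 152 at day 7. Mouse 2 held the lowest value at day 5 and the highest at day 7, and the days did not overlap. The mean level was 2.55 ± 0.917 CPM at day 5 and 188 ± 108 CPM at day 7 (SD, n = 3 per day), a log2 fold change of 6.14 ± 0.43 (SE). Over the pooled counts the ratio of day 7 to day 5 was 73.7, with a 95% counting interval of 47.0 to 123. Leaving out the day 7 library of mouse 2, which held 889 of the 1467 day 7 counts, gave a ratio of 47.0, and leaving out the day 5 library of mouse 3 gave 86.0.

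Within each mouse the ratio of *Psca* was 35.5 in mouse 1 (95% counting interval 16.98 to 89.1), 205 in mouse 2 (69.9 to 995) and 47.0 in mouse 3 (24.4 to 104). The intervals of mice 1 and 3 overlapped along most of their length, and that of mouse 2 reached higher and was the widest, since its day 5 library held 3 counts. At day 5 the coefficient of variation of *Psca* between mice was 36.0%, close to the 40.0% that counting alone gives. At day 7 it was 57.3% against 4.57% from counting, so the day 7 libraries differed among themselves by far more than their counts allow. Among the 15792 genes tested, *Psca* held place 10481 by mean level at day 5 and place 824 at day 7.

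*Ly6g6c*, a family gene of the class III region of the major histocompatibility complex on chromosome 17 (chr17:35284316-35289026, plus strand), had the second largest fold among the 10. It had 0, 0 and 1 counts at day 5 and 24, 42 and 10 counts at day 7 in mice 1, 2 and 3. The day 7 levels were 9.21, 14.6 and 4.90 CPM, and every one of them was above the single day 5 library with a count, at 0.360 CPM. The pooled ratio was 72.6, with a counting interval of 12.6 to 2904, and the log2 fold change was 5.70 ± 0.79. That ratio rested on 1 day 5 count. Without the library of mouse 3 that held it, day 5 stood at 0 counts and the level at day 7 was at least 14.9-fold higher, taking 3 counts over the group as the limit. The ratio was 48.1 without day 5 mouse 1, and 52.6 without day 7 mouse 2. Exons of *Ly6g6d* and *Mpig6b* lie on the opposite strand, and whether the counting used strand is not given in the sources used here. *Ly6g6d*, at chr17:35289020-35297041, shares only the last bases of *Ly6g6c*, and had 1 count at day 5 and 2 at day 7. Reads of *Mpig6b* from the shared stretch cannot be told apart from reads of *Ly6g6c*.

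*Lypd3* encodes C4.4A, a GPI-anchored relative of the urokinase receptor that is known from the upper layers of stratified squamous epithelium. The gene lies at chr7:24335970-24340543 on the plus strand. Its counts were 171, 198 and 234 at day 5 and 661, 809 and 471 at day 7, which are 70.5, 99.4 and 84.3 CPM and then 254, 281 and 231 CPM. The highest day 5 level was below the lowest day 7 level by a wide margin, and both days were tight. The log2 fold change was 1.59 ± 0.20, and the ratio within mice was 3.59, 2.83 and 2.73. The exons of the predicted gene *Gm26550* overlap *Lypd3* on the opposite strand.

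Markers of stratified squamous cells moved in the same direction as *Lypd3*. All 13 genes of that list were detected, 8 of 13 rose in the edgeR test and none fell. Over all genes tested, 7.22% rose and 4.82% fell. They summed to between 899 and 1248 CPM at day 5, and to between 2077 and 3562 CPM at day 7. *Krt13*, a keratin of mucosal squamous epithelium, rose by 2.07 ± 0.25 on the log2 scale (adjusted p = 2.49e-05 with edgeR), and *Sprr1a*, a component of the cornified envelope, by 3.53 ± 0.25 (adjusted p = 8.10e-08). Mouse 3 had the lowest squamous sum at day 7, at 2077 CPM against 3305 and 3562 CPM in mice 1 and 2, and also the lowest day 7 levels of *Lypd3*, *Ly6c1*, *Ly6g6c* and *Ly6d*. For *Psca* mouse 1 was lowest, and mouse 3 held the highest day 7 levels of *Ly6a* and *Ly6e*, at 1376 and 1517 CPM. The part of squamous cells in the levels of the 10 genes was not tested.

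*Ly6c1* encodes an antigen carried by many endothelial cells in the mouse. It lies at chr15:74915847-74920686 on the minus strand. The counts were 80, 85 and 118 at day 5 and 355, 376 and 193 at day 7, or 33.0, 42.7 and 42.5 CPM against 136, 131 and 94.5 CPM. No day 7 library came near the day 5 range, and mouse 3 was the lowest at day 7. The log2 fold change was 1.61 ± 0.22, with ratios of 4.13, 3.06 and 2.22 in mice 1, 2 and 3. The interval of mouse 1 (3.23 to 5.33) lay above that of mouse 3 (1.76 to 2.82).

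The last 500 bases of the *Ly6c1* transcript match its neighbour *Ly6c2* over 500 bases at 98.2% identity, so the authors' counting may have dropped or misplaced reads that fit both. *Ly6c2* was given 0 counts at day 5 and 2 at day 7. Of 10 endothelial markers, 3 were at 0 in every library (*Cdh5*, *Tek* and *Plvap*) and 8 had 3 counts or fewer in all. The list summed to 12.6 to 15.3 CPM at day 5 and 27.4 to 35.7 CPM at day 7, carried by *Egfl7* (10.9 and 17.02 CPM) and *Flt1* (2.04 and 13.2 CPM), of which *Flt1* rose (by 2.66 ± 0.43 on the log2 scale, with an edgeR adjusted p of 0.000453). Of 12 macrophage and monocyte markers, 8 were at 0, *Csf1r*, *Adgre1* and *Lyz2* among them, and the list held 2.51 to 2.89 CPM at day 5 and 3.45 to 6.85 CPM at day 7. *Cd68* rose from a mean of 1.00 to 5.27 CPM, and *Cx3cr1* fell from 11 counts to 0. Of 12 lymphocyte markers 9 were at 0, and the list summed to 0 CPM at day 5 and to between 0 and 2.45 CPM at day 7, from *Thy1* with 4 counts and *Lck* with 2 at its top. Of 12 fibroblast markers 5 were at 0, and the list went from 10.3 to 17.6 CPM at day 5 to 23.5 to 25.3 CPM at day 7, nearly all of it *Fbln1* (13.7 and 22.4 CPM), with *Col1a1* at 0.287 and 0.570 CPM and *Dcn* at 0 and 0.838 CPM. The part of such cells in the level of *Ly6c1* was not tested.

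*Ly6e*, a widely expressed GPI-anchored protein known for its effect on virus entry, was among the most abundant transcripts on both days. The gene lies at chr15:74826860-74847454 on the plus strand. Its levels were 598, 543 and 652 CPM at day 5 and 883, 922 and 1517 CPM at day 7. The days did not overlap, and mouse 3 was set apart from the others at day 7. The log2 fold change was 0.89 ± 0.22, and the ratios were 1.48, 1.70 and 2.33 in mice 1, 2 and 3. Without day 7 mouse 3 the log2 fold change was 0.59, under the threshold, and without day 5 mouse 1, 2 or 3 it was 0.88, 0.83 and 0.96, with an adjusted p that no longer passed.

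*Ly6a* encodes Sca-1, the antigen used to sort blood stem cells and stem-like cells of several mouse epithelia. It lies at chr15:74863840-74869880 on the minus strand. The levels were 824, 824 and 826 CPM at day 5 and 1192, 1268 and 1376 CPM at day 7. The day 5 values varied by 0.148%, less than the 2.27% that counting alone gives on average, so their SD of 1.22 CPM understates the error. The log2 fold change was 0.63 ± 0.18, with ratios of 1.45, 1.54 and 1.67 within mice, all in the same direction. It lay close to the limit of 0.6 and was under it when scaled by library totals only (0.54) or by the upper quartile (0.59). Without day 7 mouse 3 it was 0.58. Without day 7 mouse 2 or any 1 of the day 5 libraries it stayed at 0.63 to 0.64, with an adjusted p that no longer passed. The last 500 bases match *Gm28068* over 460 bases at 95.2% identity, and exons of that predicted gene overlap *Ly6a* on the opposite strand.

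*Ly6d*, whose human counterpart was described as a surface antigen of squamous epithelia, held the highest mean of the 10 genes at day 5. It lies at chr15:74633902-74635597 on the minus strand. Its counts were 1863, 2399 and 2679 at day 5 and 3027, 3340 and 1142 at day 7, or 768, 1205 and 965 CPM against 1161, 1160 and 559 CPM. The day 7 range of *Ly6d* enclosed most of the day 5 range, with mouse 3 lowest and mice 1 and 2 at the same level. The means were 979 ± 218 and 960 ± 347 CPM, and the log2 fold change was -0.03 ± 0.25. It moved between -0.19 and 0.24 when 1 library at a time was left out, so it had no stable sign.

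The 3 mice differed in *Ly6d* by more than counting error. The ratio of day 7 to day 5 was 1.51 in mouse 1 (counting interval 1.43 to 1.60), 0.963 in mouse 2 (0.913 to 1.01) and 0.579 in mouse 3 (0.540 to 0.621). No pair of these intervals overlapped, and those of mice 1 and 3 lay on opposite sides of 1. The coefficient of variation between mice was 22.3% at day 5 and 36.2% at day 7, against 2.10% and 2.01% from counting. With 1 library per mouse and day, such differences hold the spread between cultures as well as that between mice.

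**Figure D2:**
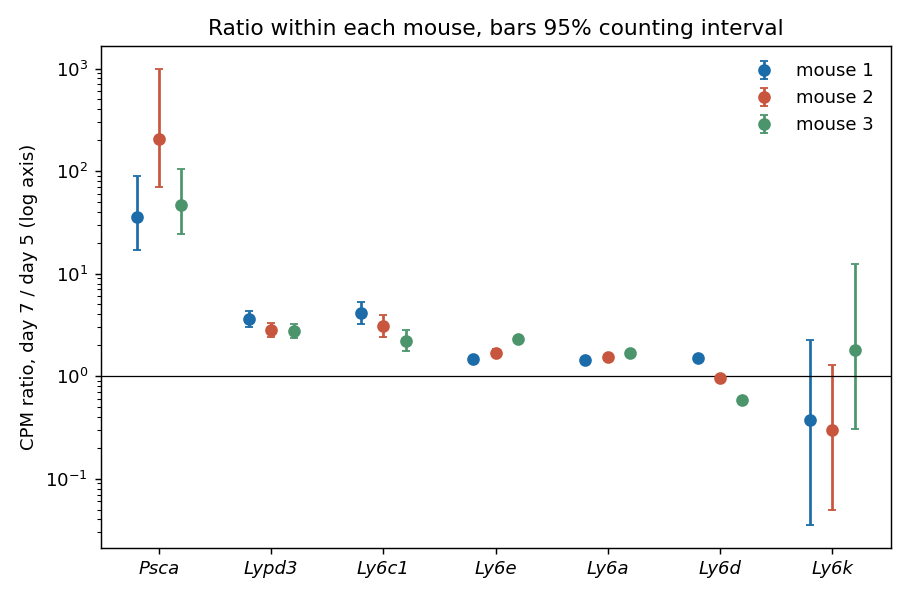
Ratio of CPM at day 7 to day 5 within each mouse (vertical axis, logarithmic) for 7 of the genes, with 1 point per mouse and bars for the 95% counting interval; the line marks a ratio of 1. The 3 points of *Psca* lie at 35.5, 205 and 47.0, those of *Ly6a* from 1.45 to 1.67, and those of *Ly6d* on both sides of the line.

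The remaining genes were near the limit of detection. *Ly6k*, known from testis and sperm function, lies at chr15:74668723-74672029 on the minus strand and had 5, 7 and 3 counts at day 5 and 2, 3 and 4 at day 7. Its means were 2.22 ± 1.22 and 1.26 ± 0.624 CPM, and its log2 fold change of -0.79 ± 0.70 was within about 1 SE of no difference. The days overlapped, and the direction was downward in mice 1 and 2 and upward in mouse 3. *Slurp1*, which encodes a secreted ligand of nicotinic acetylcholine receptors whose human counterpart is mutated in a palmoplantar keratoderma, had 1 count in 1 library on each day. *Lypd2* likewise had 1 count on each day, both in mouse 1. Neither gene allowed a fold, since both days lay under the limit of 3 counts. For both, the pooled ratio of day 7 to day 5 carried a 95% counting interval of 0.0122 to 75.0. A difference within these bounds is not excluded at this depth. *Gm17189* overlaps *Ly6k* on the opposite strand, and *Them6* overlaps *Slurp1*.

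The order of the 10 genes by mean level changed between the days. At day 5 it ran *Ly6d*, *Ly6a*, *Ly6e*, *Lypd3*, *Ly6c1*, *Psca*, *Ly6k* and then *Lypd2*, *Slurp1* and *Ly6g6c*. In that order *Ly6d* overlapped *Ly6a*, *Psca* overlapped *Ly6k*, and the last 3 overlapped one another. At day 7 it ran *Ly6a*, *Ly6e*, *Ly6d*, *Lypd3*, *Psca*, *Ly6c1*, *Ly6g6c*, *Ly6k*, *Slurp1* and *Lypd2*. There the first 3 overlapped in sequence, as did *Lypd3* with *Psca* and *Psca* with *Ly6c1*, so the place of *Psca* among these is not settled.

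Together the 10 genes held 2300, 2718 and 2575 CPM at day 5 and 3739, 4085 and 3936 CPM at day 7. These are 0.233% to 0.282% and 0.352% to 0.415% of all counts in genes. *Ly6a*, *Ly6d* and *Ly6e* made up 94.6% to 95.2% of the sum at day 5 and 82.0% to 87.7% at day 7. *Psca* made up 0.0554% to 0.126% and then 2.74% to 7.55%, with the highest share in mouse 2. The summed level was thus set mainly by *Ly6a*, *Ly6d* and *Ly6e* on both days.

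Likeness to *Psca* was measured as Pearson's r of log2 CPM over the 6 libraries, among 8171 genes whose mean over the libraries reached 10 CPM. The libraries share day, mouse and depth, and any gene that differs between the days scores high, so the values are a description. The 5 named protein-coding genes most like *Psca* were *Zfp467* (r = 0.998, 19.8 CPM at day 5 and 43.1 at day 7), *Gpbp1l1* (0.998, 36.7 and 65.6), *Krt20* (0.997, 4.25 and 37.6), *Col11a1* (0.997, 2.00 and 28.8) and *Crct1* (0.995, 0.515 and 208). An r over 0.95 was reached by 296 genes, or 3.62%. Each of the 5 had its highest value in the day 7 library of mouse 2, where *Psca* was also highest. They were picked for likeness over these same libraries, so a shared highest library is no separate finding. *Ly6a* stood at 0.975 (place 114), *Lypd3* at 0.962 (place 192), *Ly6c1* at 0.949 (place 303), *Ly6e* at 0.842 (place 1060) and *Ly6d* at -0.110 (place 4400). Among the other pairs the highest r was that of *Ly6c1* with *Lypd3*, 0.987, and *Ly6d* ran from -0.565 with *Ly6e* to 0.137 with *Ly6c1*.

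The rest of the family was taken from a list of 53 genes, of which 51 were found in the files, 20 had a count and 17 were tested. Of these, 2 rose in the edgeR test and none fell, which is 11.8% of those tested against 12.0% of all genes. Their median log2 fold change was 0.73, against -0.01 over all genes. That median is the value of *Ly6g6d* (SE 1.55), which had 1 count at day 5 and 2 at day 7. It therefore rests on counts near the limit of detection and does not describe the family as a whole. *Lypd5*, on chromosome 7 near *Lypd3* (chr7:24043489-24054534, plus strand), had 0, 1 and 0 counts at day 5 and 37, 98 and 18 at day 7. Its day 7 levels of 14.2, 34.0 and 8.81 CPM lay above the day 5 libraries in every mouse, with mouse 2 highest. The edgeR fit gave 6.67 ± 0.81 on the log2 scale, with an adjusted p of 2.49e-05, and the pooled ratio was 146, with a counting interval of 25.8 to 5809. The ratio was 85.1 without day 7 mouse 2, 96.9 without day 5 mouse 1 and 89.7 without day 5 mouse 3. Without day 5 mouse 2, which held the single day 5 count, it was at least 35.2-fold higher, taking 3 counts over the group as the limit. Exons of *Gm38964* overlap it on the opposite strand.

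*Ly6m*, within the Ly6 locus (chr15:74748836-74768870, minus strand), had no count at day 5 and 11, 14 and 0 counts at day 7. Mouse 3 was at 0 on both days, so the days overlapped. Against 3 counts over the day 5 group the day 7 level was at least 7.96-fold higher (edgeR adjusted p = 0.0160). This limit was 5.28 without day 5 mouse 1 and 4.89 without day 5 mouse 3, and ran to 10.9 without day 7 mouse 3. The call was lost with DESeq2 (adjusted p = 0.376) and in the 3 fits without a day 5 library, and across all fits the adjusted p ran from 7.23e-05 to 0.376. Without day 7 mouse 1 or mouse 2 the gene had a count in too few libraries to be tested.

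The other family genes that reached a mean of 1 CPM did not pass the edgeR test. *Lynx1*, which encodes a GPI-anchored modulator of nicotinic receptors, stood at 14.5 ± 5.87 and 23.0 ± 6.37 CPM, a difference of 0.64 ± 0.32 on the log2 scale with an edgeR adjusted p of 0.214. *Lypd6b* was at 21.9 ± 2.62 and 24.4 ± 6.90 CPM (0.15 ± 0.27, edgeR adjusted p = 0.789). *Plaur*, the urokinase receptor gene that gives the family part of its name, was at 9.92 ± 0.865 and 8.18 ± 2.36 CPM (-0.29 ± 0.33, edgeR adjusted p = 0.627). *Cd59a*, which protects cells from complement, was at 3.16 ± 0.606 and 5.66 ± 0.817 CPM without overlap between the days (0.83 ± 0.42, edgeR adjusted p = 0.229). *Pinlyp* and *Ly6g6e* had 14 and 4 counts at day 5 and 7 and 13 at day 7. All 6 were expressed at levels far below *Ly6a*, *Ly6d* and *Ly6e*. *Ly6i*, chosen here after its values were seen, had 1 count at day 5 and 10 at day 7 and was past the threshold with limma voom alone (adjusted p = 0.0474, against 0.105 with edgeR).

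**Figure D3:**
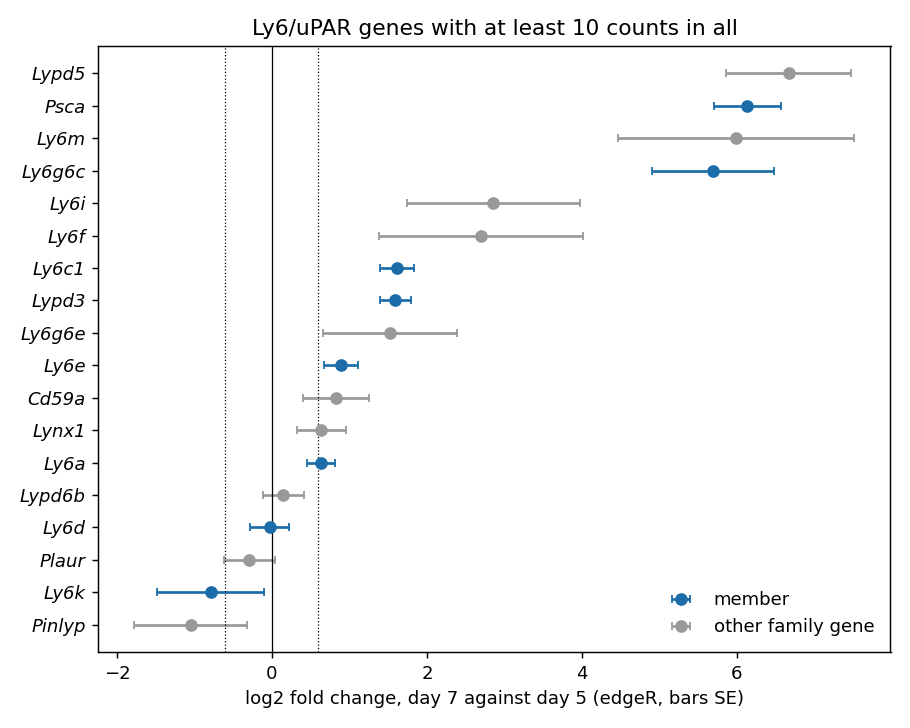
Log2 fold change of day 7 against day 5 from the edgeR fit (horizontal axis, bars 1 SE) for the 8 followed genes (blue) and the 10 other family genes (grey) with at least 10 counts in all; dotted lines mark the limit of 0.6 in each direction. *Lypd5*, *Psca*, *Ly6m* and *Ly6g6c* stand apart at 5.70 to 6.67, and the other genes lie below 3.

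Most proteins of the family need a GPI anchor, so a list of genes drawn up for building, attaching, remodelling or cutting it was examined. Of 35 listed genes, 33 were tested and 6 passed, 4 higher and 2 lower, which is 18.2% against 12.0% of all genes. Their median log2 fold change was 0.12. *Pgap1*, which removes an acyl chain from the new anchor, stood at 14.3 ± 2.19 CPM at day 5 and rose to 35.3 ± 9.86 CPM, by 1.30 ± 0.28 on the log2 scale (adjusted p = 0.00444 with edgeR). *Gdpd2*, which encodes the anchor-cutting phosphodiesterase GDE3, stood at 4.78 ± 2.56 CPM and rose to 20.3 ± 6.38 CPM (2.11 ± 0.38, edgeR adjusted p = 0.00113). *Pigf*, needed to add ethanolamine phosphate, stood at 42.8 ± 4.92 CPM and fell to 21.3 ± 6.27 CPM (edgeR adjusted p = 0.0148), and *Pigl*, which acts at the second step of anchor synthesis, fell from 37 counts to 10 (-1.90 ± 0.53, edgeR adjusted p = 0.0252).

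The remaining calls on the GPI list, named after their values were seen, were *Gde1* (0.84 ± 0.24, edgeR adjusted p = 0.0304) and the transamidase subunit gene *Pigt* (1.25 ± 0.37, edgeR adjusted p = 0.0322). Whether the product of *Gde1* acts on GPI anchors was not checked, and the gene is 1 of the 4 higher calls. *Pigl* was not past the threshold with DESeq2 or limma voom, *Pigt* not with limma voom or filterByExpr, and *Gde1* not with library totals only. *Pigt* also depended on 1 library, since its log2 fold change was 0.49 without day 7 mouse 3. By the mean over both days, the most abundant genes of the list were *Pgap2*, at 129 ± 6.23 and 164 ± 36.1 CPM (0.34 ± 0.20, edgeR adjusted p = 0.293), and *Gpaa1*, a further transamidase subunit gene, at 86.8 ± 16.8 and 81.1 ± 24.3 CPM (-0.10 ± 0.23, edgeR adjusted p = 0.828). Without a day 5 library the number of calls on the list fell to 2, 3 and 1 for mice 1, 2 and 3, and without day 7 mouse 2 it was 3. In the same fits the calls over all genes fell as well, from 1901 to 892, 797, 890 and 1045. *Gdpd2* was past the threshold in every fit that was run.

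Nicotinic acetylcholine receptors are the known partners of SLURP1 and LYNX1. Of 16 subunit genes, 4 had a count, 3 were tested and 0 passed with edgeR, DESeq2 or limma voom, nor did any reach an unadjusted p under 0.05 with edgeR. *Chrnb1*, the muscle-type beta subunit gene, had 51 and 39 counts on the 2 days (-0.47 ± 0.40 on the log2 scale, edgeR adjusted p = 0.486), and *Chrnb2* had 1 and 5.

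The Ly6 locus on chromosome 15 holds 8 of the 10 genes within 334 kb, from *Psca* at one end to *Ly6c1* at the other, while *Ly6g6c* is on chromosome 17 and *Lypd3* on chromosome 7. With 500 kb on each side, 49 annotated genes of the region were in the files, of which 29 belonged neither to the 10 genes nor to the family list. *Ly6g6g*, which bears a Ly6 name but was not on the family list, is counted among the 29. It had 8 counts at day 5 and 14 at day 7, and did not pass. Of these 29, 10 had a count, 7 were tested and 1 passed the edgeR test. That gene was *Arc*, an immediate early gene best known from neurons, which starts at -42.3 kb from the start of *Psca*, outside the row of Ly6 genes (chr15:74540932-74544419, minus strand). Its levels were 3.71, 2.51 and 4.32 CPM at day 5 and 56.0, 60.8 and 12.2 CPM at day 7. Mouse 3 was well below the other mice at day 7 but still above every day 5 library. *Arc* rose by 3.58 ± 0.49 on the log2 scale, with an edgeR adjusted p of 8.79e-05. *Them6*, which starts 6.37 kb from *Psca* and was the next most abundant neighbour, was at 11.6 ± 2.25 and 9.36 ± 2.14 CPM (-0.30 ± 0.32, edgeR adjusted p = 0.590).

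**Figure D4:**
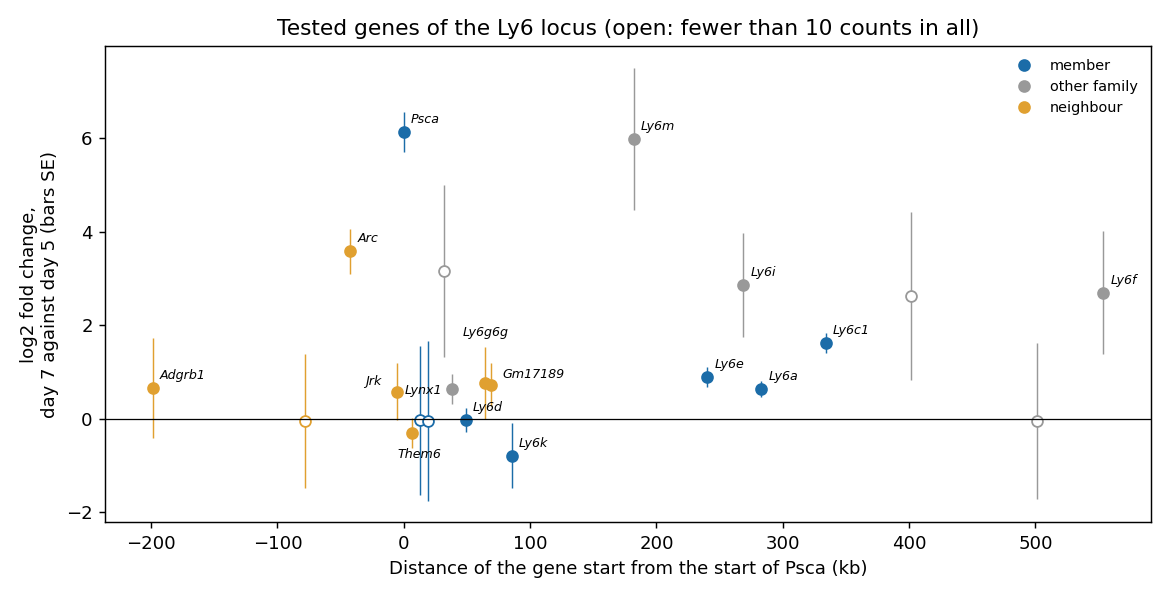
Log2 fold change of day 7 against day 5 (vertical axis, bars 1 SE) of the 22 tested genes of the Ly6 locus against the distance of their start from that of *Psca* in kb (horizontal axis); blue points are the followed genes, grey other family genes and orange neighbours, and open points have fewer than 10 counts in all. *Psca* at 6.14, *Ly6m* at 5.99 and *Arc* at 3.58 lie above the rest, with *Lynx1*, *Them6* and *Ly6d* between -0.30 and 0.64 in between.

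Of the 8 followed genes on chromosome 15, 4 were past it (*Psca*, *Ly6e*, *Ly6a* and *Ly6c1*), of 7 other family genes there 1 was (*Ly6m*), and of 7 neighbours 1 was (*Arc*), beside 12.0% of all genes in either direction and 7.22% higher. Only 6, 4 and 6 of these genes had at least 10 counts in all. Between *Psca* and *Ly6m*, the well-counted *Ly6d* overlapped between the days.

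Promoter windows of 300 bases were searched on both strands for 8 motifs in the 10 genes and in 21757 promoters of the same length. The TATA box, searched as TATAAA, was found in 4 of the 10, *Psca*, *Ly6c1*, *Ly6g6c* and *Slurp1*, and in 13.2% of all promoters. GGAATG (TEAD) was found in *Psca*, at -112, and in *Lypd2*, and in 14.0% of all promoters. CACCC (KLF/SP) was found in 6 of the 10 against 58.7%, with 3 matches in *Psca*, and CANNTG (E-box, not in capitals above) in 7 of the 10 against 70.6%. The remaining motifs were found in 1 gene each. TGANTCA (AP-1) was in *Slurp1* and in 7.15% of all promoters, and TTCNNNGAA (GAS) in *Ly6k* and in 8.82%. The ISRE, searched as TTTC with 2 bases of any kind and TTTC after it, was in *Ly6d*, at -200, and in 3.84%, and the letters AGATAA of the motif for GATA factors in *Ly6a* and in 10.6%. No motif was shared by the 6 genes that were past the threshold. A match describes the letters of the window and is not a binding site.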

How the data were processed

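RNA of 6 libraries of mSGOs, 3 mice at day 5 and at day 7, was analysed. The deposited files hold whole-number counts per Ensembl gene ID, not normalised. The authors used QuantSeq 3′ libraries and aligned the reads to GRCm39. The aligner, counter, annotation release and strand setting are not given in the sources used here, and edgeR is named in the submitters' processing notes. The 5 entries of each file that name no gene were left out. GENCODE vM39 gave names to 43465 of 47643 IDs (91.2%).

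The 15792 genes counted at least once in 2 or more libraries were fitted in R 4.3.3 with edgeR 4.0.16 (quasi-likelihood F test, two-sided, TMM scaling, day alone as the term), with Benjamini-Hochberg adjustment over all of them. The fit was tested on simulated data. CPM are counts over the TMM-scaled library size, times 1000000. The coefficient of variation from counting is that of Poisson counts, and ratios carry exact 95% counting intervals. Both take each read as an independent count and leave out the spread between cultures. Reads had no molecular identifiers, so copies of 1 molecule would make both too small. A prior count of 2 was added before log2 CPM. Alternatives were 3 other scalings, 2 other filters, DESeq2 1.42.0, limma 3.58.1 (voom), the mouse as a block, and leaving out each library. Similar transcript ends were found with BLAST 2.17.0, and windows were read with samtools 1.23.1. Protein sequences were not used here.

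Genes named are the 10 members, family genes past the threshold or reaching a mean of 1 CPM, up to 4 with the smallest p and 2 with the highest mean of each other list, 5 most like *Psca*, and 2 per marker list; 1 marker list is not reported here. The members and lists were chosen with earlier results of these data known. The titles give the same mouse for same-numbered libraries, so the numbers pair them. Their deviations from the day means correlated at 0.14, -0.10 and 0.16 over 8172 genes for mice 1, 2 and 3. The p-values measure the spread between these libraries, and organoids of 1 mouse enter on both days.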

Additional observations from a re-analysis of the deposited data

How the results depend on the processing

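Of the 10 followed genes, 4 to 6 were past the threshold when 1 library was left out, and *Psca*, *Ly6g6c*, *Lypd3* and *Ly6c1* were past it in every fit. The count over all genes, 1901, ran from 797 to 2576 when 1 library was left out, that of the GPI list from 1 to 8, and that of the other family genes from 1 to 2, with 1 also under filterByExpr and with DESeq2. Scaled by library totals only, the day 5 mean of *Ly6a* was 852 CPM in place of 825. No direction of a value past the threshold was reversed under any alternative. With the mouse as a block, to use the pairing of the libraries, 2340 genes passed (1322 higher and 1018 lower), with 6 of the followed genes, 2 other family genes, 7 genes of the GPI list (*Pigb* in addition), 0 nicotinic receptor genes and 1 neighbour (*Arc*), and no other call of these lists changed. The depth, at about 1 CPM for 3 counts, leaves *Lypd2*, *Slurp1* and *Ly6k* without a usable fold.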
